A study of Sus scrofa with 6 samples.

Results

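The abdominal aorta of miniature pigs was examined for 9 genes grouped as scavenger receptors for modified lipoproteins. These were MSR1, MARCO, SCARA5, COLEC12, CD36, SCARB1, SCARB2, OLR1 and SCARF1. They were chosen by name among the 30477 genes of the deposited table. The symbols of 8 were found in it, and SCARA5 (ENSSSCG00000009672), which carries no symbol there, was taken by the gene description, so that all 9 were followed. All animals were male Wuzhishan pigs, given as 3 to 4 months old by the labels and as older by the study's methods. The NC group ate normal chow and the HFCF group ate chow with shortening oil, egg yolk powder, cholesterol and fructose added, both for 6 months, and each group has 3 libraries of total RNA from abdominal aorta. The labels name no individual animals, so p-values measure the spread between these libraries.

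Scavenger receptors are membrane proteins, many of which bind oxidised or acetylated low-density lipoprotein (LDL), microbes, dying cells or other negatively charged ligands. Uptake through them is not shut down by the cholesterol that they bring into a cell, and macrophages of the artery wall can fill with cholesteryl ester through them and become foam cells. Class A receptors (MSR1, MARCO, SCARA5, COLEC12) are trimers with a collagen-like stalk. Class B receptors (CD36, SCARB1, SCARB2) cross the membrane at both ends of the protein and also handle fatty acids, high-density lipoprotein or lysosomal cargo. OLR1, better known as LOX-1, is a lectin-like receptor of class E, and SCARF1 is an endothelial receptor of class F. In the GO terms deposited with the values, 7 of the 9 carried scavenger receptor activity (SCARB1 and OLR1 did not), 5 carried binding of LDL particles (MSR1, COLEC12, CD36, SCARB1 and SCARF1) and all 9 were integral to a membrane. In the KEGG pathways, 6 of the 7 that had an entry were listed under the phagosome, the exception being SCARB2.

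The values are FPKM, fragments of a gene scaled to its exon length and to the mapped reads, so levels of different genes can be set side by side, but each value is a share of its own library. Depth is unknown in absolute terms. The smallest steps between low FPKM values gave relative depths of 1 to 1.37 in the NC libraries and 1.03 to 1.07 in the HFCF libraries. Summed FPKM was 272207 to 287141 in the NC group and 330222 to 338690 in the HFCF group, and 39.9% to 40.6% and 41.4% to 43.9% of the genes were listed at 0. The make-up of the libraries also went with diet outside the receptors. A mitochondrial ribosomal RNA (ENSSSCG00000018061) was at 0.295 to 0.686 FPKM under NC and 141 to 206 under HFCF, whereas the other one (ENSSSCG00000018063) was at 113 to 372 and 101 to 130. The mitochondrial transcript ND3 was at 85.8 to 110.2 and 1510 to 2331. Whether these differences in the libraries bear on the receptors was not tested, and they cannot be told apart from diet. Changes were tested with limma on log2(FPKM + 0.1) across the 15384 genes whose FPKM averaged 0.1 or more, and a gene was called at a Benjamini-Hochberg adjusted p under 0.05 over all of them. On this scale a log2 fold change understates the change of genes with low values. Over all tested genes the median log2 fold change was 0.32, and rescaling moved it to -0.0027 (library medians of ratios), -0.07 (quantiles made equal) and 0.09 (TPM). With these scalings the calls moved from 3505 higher and 948 lower to 2035 and 1969, 1748 and 1782, and 2229 and 1527.

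MSR1, CD36 and OLR1 were called higher in the HFCF aorta. Over 15 alternatives of the processing, MSR1 kept its call in all, CD36 lost it in 3 and OLR1 lost it in 12. MSR1 rose 56.5-fold in mean FPKM, CD36 rose 5.52-fold and OLR1 rose 5.53-fold. With a library left out these folds ran from 36.5 (without the first HFCF library) to 129 (without the third NC library) for MSR1, from 3.94 (without the first HFCF library) to 8.29 (without the second NC library) for CD36, and from 3.03 (without the first HFCF library) to 7.49 (without the third) for OLR1. None of the 9 was called lower, and the remaining 6 were not called. SCARA5, the most abundant receptor under NC, had mean levels of 112 FPKM under NC and 54.8 FPKM under HFCF with overlapping values. By limma 3 of 9 were called higher, against 22.8% of all tested genes, and 0 of 9 lower, against 6.16%. At an unadjusted p under 0.05, limma gave 4 higher and 0 lower. With 9 genes, 3 calls do not set the receptors apart from the share over all genes. The thresholds of the study, mean FPKM that differed more than 2 times (a ratio over 2 or under 0.5) at an unadjusted p under 0.05, were passed by the same 3 receptors, against 20.7% of tested genes in the upward direction. Every HFCF library lay above every NC library for those 3 receptors, against 36.1% of tested genes, and the other 6 overlapped between groups. The median log2 fold change of the 9 was 0.94, beside 0.32 for all genes, and 7 of the 9 lay above the latter.

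**Figure D1:**
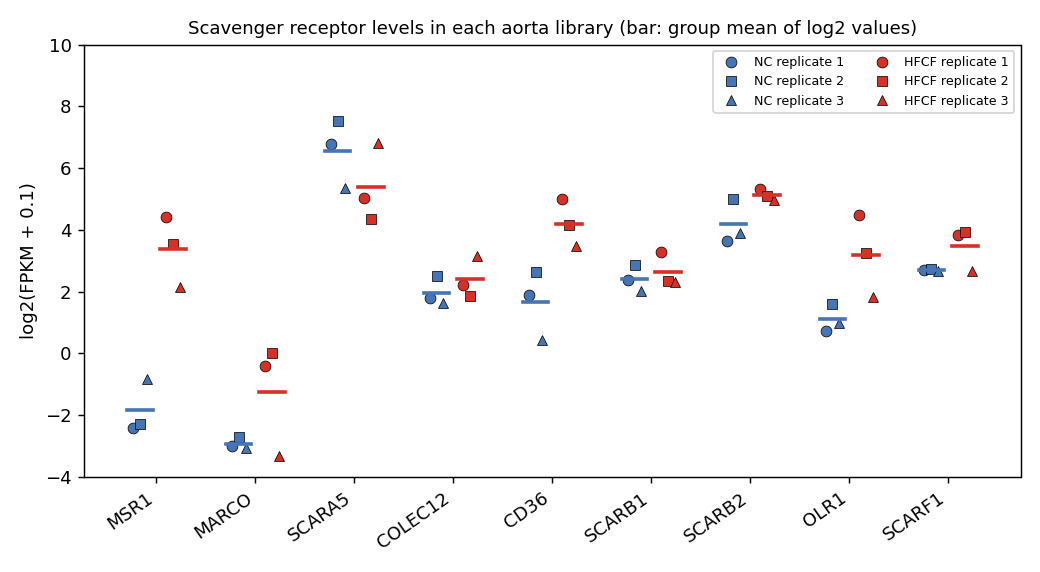
The level of each receptor is plotted as log2(FPKM + 0.1) for every aorta library, with NC in blue, HFCF in red, a marker shape for each replicate number and a bar at the group mean. MSR1, CD36 and OLR1 are the receptors whose red points all lie above their blue points, and the third HFCF library (red triangle) is the lowest red point for each of them.

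The third HFCF library stood apart from the other two for several receptors. It had the lowest HFCF value for MSR1, MARCO, CD36, SCARB1, SCARB2, OLR1 and SCARF1 and the highest for SCARA5 and COLEC12. Without it 5 of 9 receptors were called higher, MARCO and SCARF1 being added. Without the first NC library, the first HFCF library or the second HFCF library, only MSR1 was called among the 9. Across genes, which are not independent replicates, the log2 values of HFCF libraries correlated at 0.927 to 0.955 with each other, those of NC libraries at 0.957 to 0.970, and those of different groups at 0.841 to 0.910.

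Among the class A receptors, MSR1 (ENSSSCG00000006979), the macrophage receptor for acetylated and oxidised LDL, was scarce in the NC aorta. It was at 0.0867, 0.105 and 0.464 FPKM in the 3 NC libraries and at 21.1, 11.6 and 4.37 FPKM in the 3 HFCF libraries. The groups were far apart, the lowest HFCF value being 9.41 times the highest NC value. Mean MSR1 was 0.219 ± 0.213 FPKM (SD, n = 3) under NC and 12.4 ± 8.42 FPKM under HFCF. The log2 fold change was 5.22 (SE 0.66, 95% interval 3.67 to 6.76, adjusted p = 0.00272 by limma), or 4.89 above the median of all genes. MSR1 was called under all 15 alternatives, with log2 fold changes of 3.24 to 5.88 and adjusted p of 0.00246 to 0.0178. Within each group MSR1 still varied widely, by 5.36 times between the highest and the lowest NC library and by 4.84 times under HFCF.

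MARCO (ENSSSCG00000015716), a receptor that lets macrophages bind bacteria and particles, was the scarcest of the 9. Its NC values were 0.0261, 0.0516 and 0.0194 FPKM. Its HFCF values were 0.645 and 0.913 FPKM, and it was listed at 0 in the third HFCF library. The first 2 HFCF libraries were above every NC library and the third was below them, so the groups overlapped. Its log2 fold change was 1.68 (SE 0.86, 95% interval -0.34 to 3.71, adjusted p = 0.181 by limma), and without the third HFCF library it was 2.72 with an adjusted p of 0.0102.

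SCARA5, a ferritin-binding receptor found on stromal cells, had the highest level of the 9 in every NC library. The NC libraries held 109.9, 186 and 40.9 FPKM, and the HFCF libraries 32.3, 20.3 and 112 FPKM. Each group had a library inside the range of the other, the third NC library being low and the third HFCF library high. Means were 112 ± 72.7 and 54.8 ± 49.8 FPKM (SD, n = 3). The log2 fold change was -1.17 (SE 0.74, 95% interval -2.91 to 0.58, adjusted p = 0.272 by limma), and it stayed negative under all 15 alternatives, at -1.88 to -0.65, without being called under any of them. Without the third library of either group, SCARA5 passed the thresholds of the study in the downward direction.

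COLEC12 (ENSSSCG00000040397), a class A receptor that ends in a C-type lectin domain, had overlapping values. It was at 3.33, 5.53 and 2.97 FPKM under NC and at 4.52, 3.54 and 8.72 FPKM under HFCF, and only the third HFCF library lay outside the NC range. HFCF minus NC gave a log2 fold change of 0.44 (SE 0.38, adjusted p = 0.418 by limma), and the 95% interval of -0.46 to 1.34 leaves room for a change in either direction.

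Among the class B receptors, CD36 (ENSSSCG00000015405), which binds oxidised LDL and long-chain fatty acids on macrophages, adipocytes, platelets and capillary endothelium, rose with the HFCF diet. It was at 3.58, 6.07 and 1.26 FPKM in the NC libraries and at 31.6, 17.6 and 11.1 FPKM in the HFCF libraries. The groups did not overlap, the lowest HFCF value being 1.82 times the highest NC value. Means were 3.64 ± 2.41 and 20.1 ± 10.5 FPKM (SD, n = 3). The log2 fold change was 2.55 (SE 0.60, 95% interval 1.14 to 3.96, adjusted p = 0.0202 by limma). CD36 was called in 12 of 15 alternatives, including every scaling, and the adjusted p was 0.0632 without the first NC library, 0.054 without the first HFCF library and 0.0508 without the second.

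SCARB1 (ENSSSCG00000009759), the receptor that takes cholesteryl ester from high-density lipoprotein, had means of 5.42 ± 1.68 FPKM under NC and 6.496 ± 2.72 FPKM under HFCF (SD, n = 3). It was at 5.13, 7.23 and 3.91 FPKM under NC and at 9.64, 4.97 and 4.88 FPKM under HFCF, and only the first HFCF library exceeded the NC range. On the log2 scale the change was 0.23 (SE 0.34, 95% interval -0.57 to 1.02, adjusted p = 0.646 by limma). Its direction was not settled, since median-ratio scaling gave a log2 fold change of -0.12, quantile normalization gave -0.13, and values of -0.03 and -0.09 were found as TPM and without the first HFCF library.

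SCARB2 (ENSSSCG00000008980), a lysosomal membrane protein that carries glucocerebrosidase to the lysosome, was at 12.3, 32.2 and 14.8 FPKM under NC and at 39.8, 34.0 and 31.1 FPKM under HFCF. The second NC library lay inside the HFCF range and the other 2 were well below it. The HFCF libraries were close together, with a mean of 34.99 ± 4.43 FPKM (SD, n = 3), beside 19.8 ± 10.8 FPKM under NC. The log2 fold change was 0.94 (SE 0.35, 95% interval 0.12 to 1.76, adjusted p = 0.0815 by limma), and without the second NC library it was 1.36 with an adjusted p of 0.0108.

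OLR1 (ENSSSCG00000000647), the oxidised LDL receptor first known from endothelium and also made by macrophages and smooth muscle cells, was at 1.55, 2.96 and 1.86 FPKM under NC and at 22.4, 9.44 and 3.43 FPKM under HFCF. All HFCF libraries were above all NC libraries, but the third HFCF library was just 1.16 times the highest NC library. Means were 2.12 ± 0.74 and 11.7 ± 9.67 FPKM (SD, n = 3). Its log2 fold change was 2.09 (SE 0.63, 95% interval 0.60 to 3.57, adjusted p = 0.0459 by limma). This call was close to the threshold and was lost in 12 of 15 alternatives, over which the adjusted p ran from 0.0117 to 0.145. In all of them the log2 fold change stayed between 1.44 and 2.77. With the replicate number as a block the adjusted p was 0.063.

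SCARF1 (ENSSSCG00000024071), an endothelial receptor for acetylated LDL, was almost constant under NC, at 6.38, 6.49 and 6.26 FPKM. The HFCF libraries were at 14.0, 15.2 and 6.23 FPKM, so that the first 2 were more than 2 times as high and the third was at the NC level. The log2 fold change was 0.78 (SE 0.33, 95% interval -0.01 to 1.57, adjusted p = 0.122 by limma). Without the third HFCF library it was 1.19 with an adjusted p of 0.00871.

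**Figure D2:**
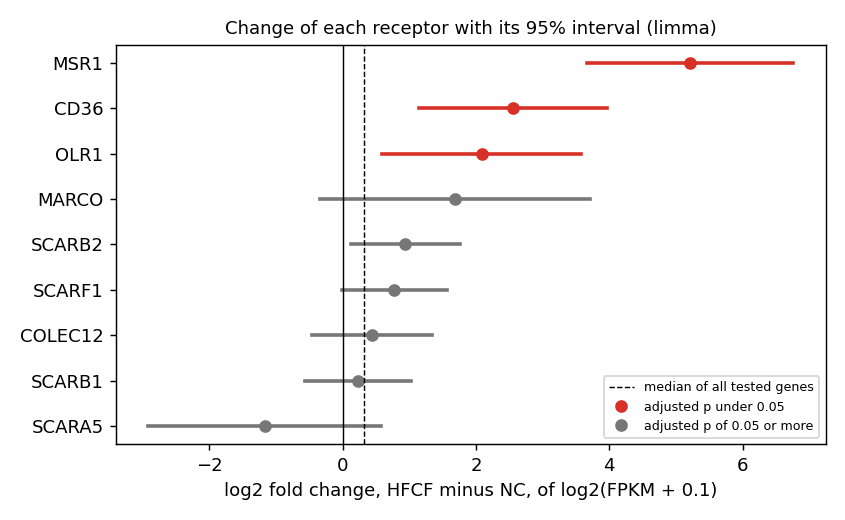
The log2 fold change (HFCF minus NC, on the log2(FPKM + 0.1) scale) of each receptor is drawn as a point with its 95% interval from limma, in red where the adjusted p was under 0.05, and the dashed line marks the median of all tested genes at 0.32. The intervals of MSR1, CD36 and OLR1 lie above the dashed line, and those of the other 6 receptors include it.

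The balance among the receptors, by order of level and by share of summed FPKM, is given as description and was not tested. Under NC the order of mean FPKM ran from SCARA5 over SCARB2, SCARF1, SCARB1, COLEC12, CD36 and OLR1 to MSR1 and MARCO. The neighbours from SCARF1 to OLR1 overlapped in their values, while SCARA5, SCARB2, MSR1 and MARCO were each set off from their neighbours. Under HFCF it ran from SCARA5 over SCARB2, CD36, MSR1, SCARF1, OLR1 and SCARB1 to COLEC12 and MARCO, and only MARCO was set off. The 9 receptors summed to 142, 247 and 72.4 FPKM under NC and to 176, 118 and 182 FPKM under HFCF, which overlapped. SCARA5 made up 77.2%, 75.4% and 56.4% of this sum in the NC libraries and 18.3%, 17.3% and 61.6% in the HFCF libraries, so the third HFCF library had a SCARA5 share inside the NC range.

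Without SCARA5 the other 8 receptors summed to 32.4, 60.6 and 31.6 FPKM under NC and to 144, 97.3 and 69.8 FPKM under HFCF, a ratio of means of 2.49. The groups did not overlap in this sum. MSR1 was 0.268%, 0.173% and 1.47% of it under NC and 14.7%, 11.9% and 6.26% under HFCF. The share of CD36 was 11.1%, 10.01% and 3.98% under NC and 22.0%, 18.1% and 15.8% under HFCF. SCARB1 was a smaller share in every HFCF library, although its level was not called. Its share was 15.9%, 11.9% and 12.4% under NC and 6.70%, 5.11% and 6.99% under HFCF. Shares of a sum depend on each other, so a rise of some receptors lowers the share of the rest. SCARB2 was the largest of the 8 in every library, at 37.9% to 53.1% under NC and 27.7% to 44.6% under HFCF. OLR1 held 4.78%, 4.88% and 5.89% under NC and 15.6%, 9.70% and 4.92% under HFCF, so its share in the third HFCF library was inside the NC range.

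**Figure D3:**
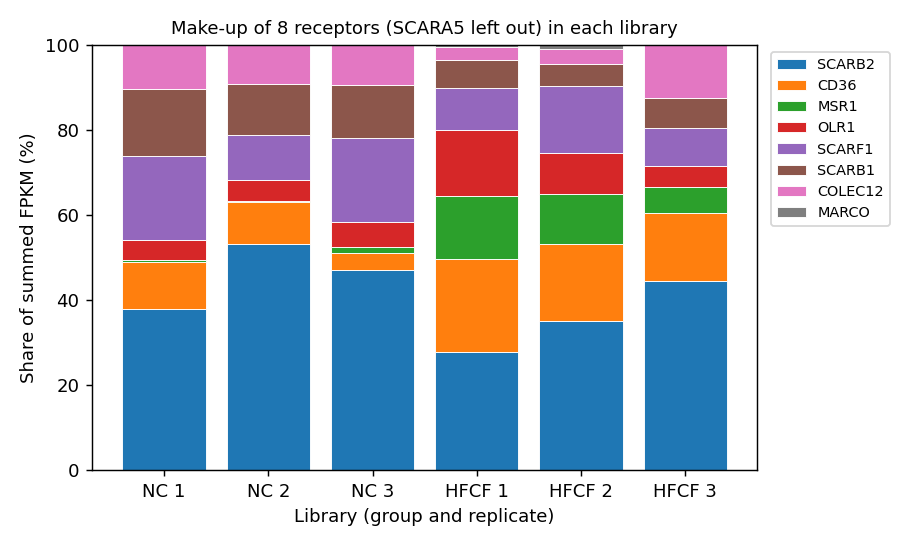
Each stacked bar gives the percentage of the summed FPKM of 8 receptors (SCARA5 left out) held by each receptor in a library. The MSR1 band (green) is at most 1.47% in the NC libraries and 6.26% to 14.7% in the HFCF libraries, and SCARB2 (blue) is the widest band in all 6.

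A scaling factor common to a library cancels from the difference between 2 of its receptors, except where values lie near the pseudocount, as those of MARCO and MSR1 did under NC. All 36 pairs were compared as differences of log2(FPKM + 0.1), and in 15 the groups did not overlap. An exact two-sided permutation test of 3 libraries against 3 cannot go below p = 0.1, and the smallest p adjusted over the 36 pairs was 0.24, so no pair could pass 0.05. MSR1 separated the groups in most pairs, its difference being higher in every HFCF library than in every NC library for 7 of its 8 partners, CD36 being the exception. MSR1 had the largest log2 fold change of the receptors (5.22), so its separation from partners that moved less restates its rise in level. How often pairs of other genes separate the groups was not computed, so these counts do not set the receptors apart. MSR1 minus OLR1 was -3.14, -3.90 and -1.80 under NC and -0.08, 0.29 and 0.34 under HFCF, a difference of 3.13 (exact permutation p = 0.1). MSR1 minus CD36 was -4.30, -4.91 and -1.27 under NC and -0.58, -0.60 and -1.32 under HFCF. The third library of each group had almost the same MSR1 to CD36 difference, and the groups overlapped (exact permutation p = 0.2).

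Within class B, CD36 minus SCARB1 was -0.51, -0.25 and -1.56 under NC and 1.70, 1.80 and 1.16 under HFCF, so CD36 was below the high-density lipoprotein receptor in every NC library and above it in every HFCF library (exact permutation p = 0.1). Against SCARB2 the difference moved by 1.61 (exact permutation p = 0.1), and SCARB1 against SCARB2 by -0.72 with overlap (exact permutation p = 0.2). CD36 minus OLR1 was 0.47 higher under HFCF with overlap (exact permutation p = 0.7). Within class A, SCARA5 minus COLEC12 was 5.004, 5.05 and 3.74 under NC and 2.81, 2.49 and 3.67 under HFCF (exact permutation p = 0.1). SCARA5 minus CD36 was 4.90, 4.92 and 4.91 in the NC libraries, although the FPKM of both differed several times among them, and 0.03, 0.21 and 3.33 in the HFCF libraries (exact permutation p = 0.1).

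The receptors are made by different cells, and in bulk tissue fewer cells of a type and less RNA per cell cannot be told apart. Macrophage markers were far higher in the HFCF aorta. All 12 of them were called higher, with a median log2 fold change of 3.82, and their summed FPKM was 59.0 to 70.6 under NC and 814 to 2067 under HFCF, with none of them at 0. The microglia and macrophage protein AIF1 had the largest log2 fold change at 5.13 (adjusted p = 5.55e-04 by limma), and the mannose receptor MRC1 the smallest at 1.31 (adjusted p = 0.0439), which was kept in 4 of 15 alternatives. The first HFCF library had the highest macrophage sum, 2067 FPKM, and also the highest MSR1, CD36 and OLR1, whereas SCARF1 was highest in the second. The third HFCF library had a macrophage sum of 814 FPKM, close to the 895 FPKM of the second, while its MSR1, CD36, OLR1 and SCARF1 levels were lower. What part the macrophage markers have in the receptor levels was not tested.

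Set against the mean log2 level of the 12 macrophage markers in the same library, 6 of the 9 receptors were lower in every HFCF library than in every NC library, against 95.2% of all tested genes, and none was higher in all, against 0.566%. The mean of the list itself was 3.56 higher under HFCF, so falling behind it is not particular to these receptors. MSR1 relative to these markers was -3.92, -3.85 and -2.53 under NC and -1.59, -1.13 and -2.63 under HFCF. It was the only receptor whose mean moved up on this relative scale, by 1.65, and the groups overlapped through the third library of each (exact permutation p = 0.2). CD36 relative to the markers was 0.38, 1.06 and -1.26 under NC and -1.01, -0.53 and -1.31 under HFCF, a change of -1.01 with overlap (exact permutation p = 0.3). OLR1 was -0.78, 0.05 and -0.73 under NC and -1.51, -1.42 and -2.97 under HFCF, lower in all HFCF libraries (exact permutation p = 0.1). Changes without overlap were also found for 5 receptors not called as levels, at -2.62 for SCARB2, -2.78 for SCARF1, -3.12 for COLEC12, -3.34 for SCARB1 and -4.73 for SCARA5 (exact permutation p = 0.1 for each). MARCO changed by -1.88 with overlap (exact permutation p = 0.2). Of the 81 differences between a receptor and a marker list, the smallest adjusted p was 0.261.

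**Figure D4:**
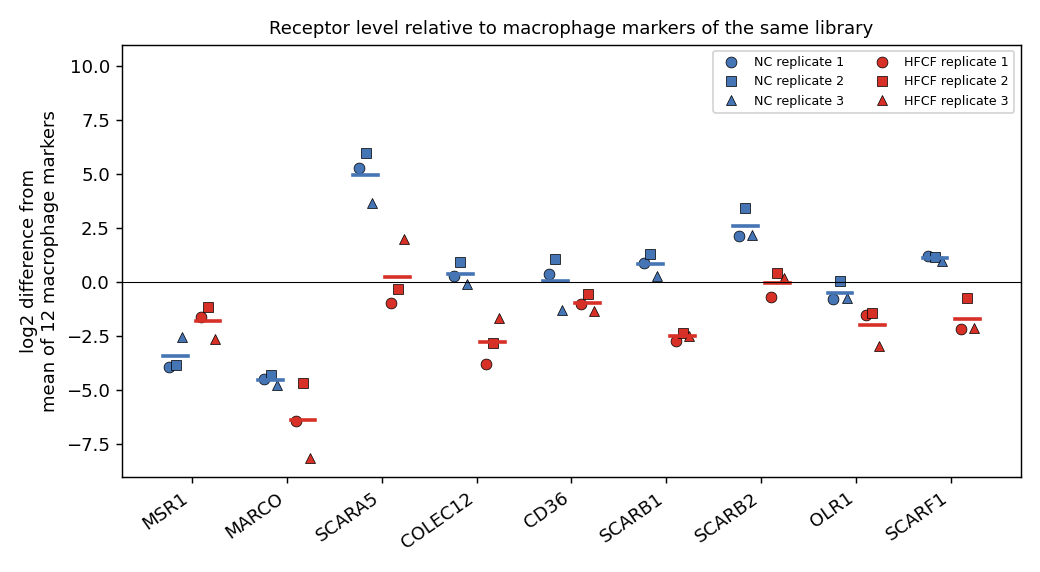
Each point is the log2(FPKM + 0.1) of a receptor minus the mean of 12 macrophage markers in the same library, with NC in blue and HFCF in red and bars at the group means. MSR1 is the receptor whose HFCF mean lies above its NC mean, by 1.65, and the red points of SCARA5, COLEC12, SCARB1, SCARB2, OLR1 and SCARF1 all lie below their blue points.

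Endothelial markers overlapped between the groups in their sum and mean. Of 9 tested, limma called 0 in either direction (2 higher and 0 lower at an unadjusted p under 0.05), and the summed FPKM was 144 to 257 under NC and 117 to 292 under HFCF. A single marker was called higher with the replicate block, with a minimum mean FPKM of 1 or without the third HFCF library. The angiopoietin receptor TEK had the largest log2 fold change of the list, 1.18 (adjusted p = 0.0541 by limma), and every HFCF value of TEK and of the growth factor receptor KDR was above every NC value. Relative to the endothelial list CD36 moved by 2.48, OLR1 by 2.01 and MSR1 by 5.14, each without overlap (exact permutation p = 0.1), as did 16.3% of all tested genes in the upward direction, whereas SCARB1 moved by 0.15 and SCARF1 by 0.70 with overlap.

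Contractile smooth muscle markers, which mark the main cell of the aortic media, were the most abundant list in every library, at a summed 15914 to 22729 FPKM under NC and 7997 to 12892 under HFCF. Of 8 markers 6 were called lower and 0 higher, with a median log2 fold change of -1.12. The transcription factor MYOCD fell by 2.72 on the log2 scale (adjusted p = 0.00543 by limma) and the actin ACTA2 by 0.98 (adjusted p = 0.0356). The count lower was 2 without the first NC library, 3 with no filter on low values and 4 to 7 with another library left out or the replicate block, and ACTA2 was called in 8 of 15 alternatives. Relative to this list, whose mean was itself lower in every HFCF library, 8 of the 9 receptors were higher in every HFCF library, against 76.2% of all tested genes, and SCARA5 was the exception with a change of 0.10.

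Adipocyte and fibroblast markers varied among libraries as some receptors did. Adipocyte markers summed to 103, 155 and 18.3 FPKM under NC and to 18.3, 11.1 and 32.5 FPKM under HFCF. ADIPOQ, which codes for the fat cell hormone adiponectin, was at 39.1, 59.9 and 1.22 FPKM under NC and at 4.08, 0.301 and 4.04 FPKM under HFCF. The first 2 NC libraries were high in ADIPOQ and in the summed markers, and the third was low, and the first 2 were also the NC libraries with the higher SCARA5 and CD36. This order was not particular to adipocyte markers. The third NC library was also the lowest of its group in the endothelial and fibroblast sums and in COLEC12 and SCARB1, while its macrophage sum was the highest. Of 7 adipocyte markers 1 was called lower, the lipid droplet protein PLIN4 (log2 fold change -1.60, adjusted p = 0.0296 by limma), and 0 higher. The count lower was 0 with the replicate block or without the first or second library of either group, and 4 without the third NC library. SCARA5 minus the adipocyte list was 3.86, 3.90 and 5.41 under NC and 4.43, 4.87 and 5.14 under HFCF, a change of 0.42 (exact permutation p = 0.5). What part fat cells have in the receptor levels was not tested.

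Fibroblast markers summed to 4154, 5319 and 3023 FPKM under NC and to 2995, 3595 and 5208 FPKM under HFCF, and the third HFCF library was the highest of its group, as it was for SCARA5 and COLEC12. Of 8 markers 1 was called higher and 0 lower. That marker was LUM, a collagen-binding proteoglycan, which rose by 1.96 on the log2 scale (adjusted p = 0.00215 by limma). PI16, a marker of adventitial fibroblasts, was at 101, 142 and 82.6 FPKM under NC and at 55.1, 51.2 and 152 FPKM under HFCF. COLEC12 relative to the fibroblast list moved by 0.28 with overlap (exact permutation p = 0.4) and SCARA5 by -1.33 with overlap (exact permutation p = 0.2).

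**Figure D5:**
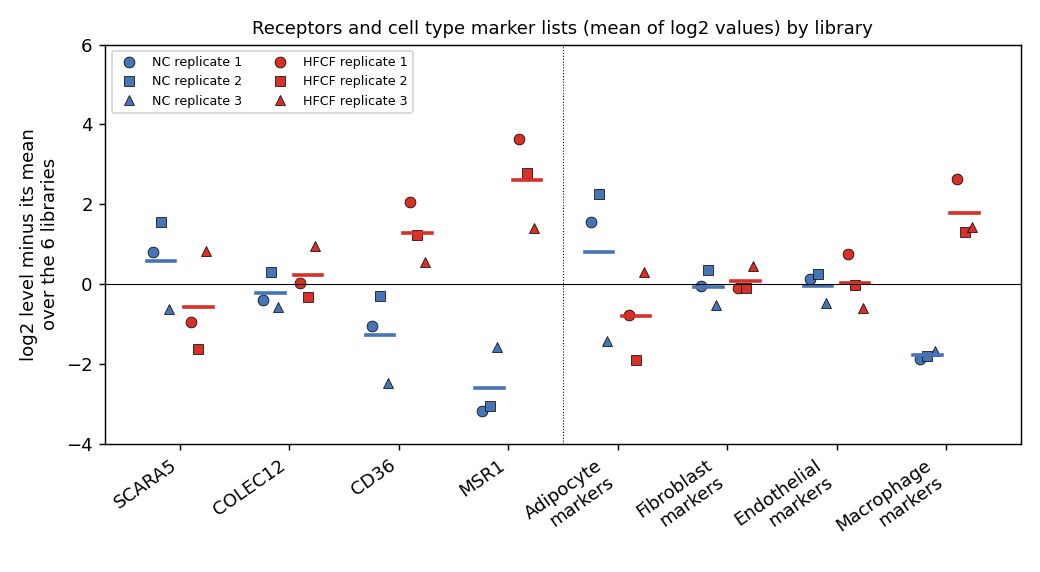
For 4 receptors and 4 marker lists (mean of log2 values), the level in each library is plotted relative to its own mean over the 6 libraries, on a log2 scale, with NC in blue and HFCF in red and bars at group means. The macrophage list separates the groups without overlap as MSR1 and CD36 do, and SCARA5 and the adipocyte list share high values in the first 2 NC libraries.

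For each receptor the genes with the most similar profile were found among 9575 genes averaging 1 FPKM or more, by the root mean square difference of mean-centred log2 values over the 6 libraries. This measure is not scaled to how much a gene varies. Receptors that varied little can reach smaller values, so values of different receptors do not rank how close their matches are. MSR1 was nearest to FCRL3 (0.333), an Fc receptor-like protein, and ATP6V0D2 (0.341), a subunit of the proton pump of osteoclasts and macrophages. Both were listed at 0 in the first 2 NC libraries and averaged 1 FPKM or more only through their HFCF values. MSR1 was near the pseudocount in the same 2 NC libraries, so the NC side of this likeness rests largely on the pseudocount. CD36 was nearest to the transporter FLVCR2 (0.275), and OLR1 to DOCK8 (0.276) and the hexokinase HK2 (0.291). COLEC12 was nearest to the serine protease HTRA3 (0.133) and the platelet-derived growth factor receptor PDGFRA (0.160). SCARA5 was nearest to GFRA1 (0.292) and F2RL2 (0.310). The smallest value was that of SCARB1, which varied little, with the spermine synthase SMS (0.0802), followed at some distance by MYBPC2 (0.147). SCARF1 was nearest to the macrophage growth factor CSF1 (0.120), and SCARB2 to LONRF1 (0.136) and the ceramidase ACER3 (0.139). The values of MARCO were the largest, the splicing regulator MBNL1 being at 0.571, with its lowest HFCF value also in the third library.

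Of 16 other scavenger receptor genes, 11 were matched by symbol and tested, and 5 were called higher and 0 lower, with a median log2 fold change of 1.31. CLEC7A, the beta-glucan receptor dectin-1, was at 0.0237 and 0.0813 FPKM in the first 2 NC libraries, listed at 0 in the third, and at 9.71, 8.44 and 5.40 FPKM under HFCF. It had the largest log2 fold change of the list, 5.88 (adjusted p = 3.50e-04 by limma). CD68, a lysosomal class D receptor of macrophages, rose from 4.48 ± 1.06 to 158 ± 89.9 FPKM (SD, n = 3), and CD163, the haemoglobin-haptoglobin receptor, from 1.41 ± 0.25 to 14.2 ± 11.4 FPKM. Both were also on the macrophage list, as was MRC1, which was called here too (adjusted p = 0.0439 by limma) but kept in 4 of 15 alternatives. The count higher was 4 under every scaling. The smallest called change was that of STAB1, a class H receptor of endothelium and macrophages, at 1.25 (adjusted p = 0.011 by limma). CD5 had a log2 fold change of 1.79 that was not called (adjusted p = 0.0567 by limma).

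The genes for uptake of unmodified lipoproteins showed another picture. Of 8 tested, 1 was called higher and 3 lower, with a median log2 fold change of -0.74. The sorting receptor SORT1 was at 13.2, 16.7 and 14.7 FPKM under NC and at 4.27, 7.15 and 5.09 FPKM under HFCF, and it fell by 1.45 on the log2 scale (adjusted p = 0.0051 by limma). LRPAP1, a chaperone of lipoprotein receptors, rose by 1.05 (adjusted p = 0.00742). LRP8, at -0.75 on the log2 scale, was not called (adjusted p = 0.109).

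Of 11 genes for handling lipid after uptake, 6 were called higher and 0 lower, with a median log2 fold change of 2.14. ABCA1, which exports cholesterol to apolipoprotein A-I, had the largest change and rose from 0.729 ± 0.137 to 11.6 ± 1.504 FPKM (SD, n = 3, log2 fold change 3.82, adjusted p = 2.60e-04 by limma). LIPA, the lysosomal acid lipase, rose by 2.67, SOAT1, which esterifies cholesterol, by 2.50, and ABCG1, another cholesterol exporter, by 2.34. The smallest called change was that of NPC2, a lysosomal cholesterol carrier, at 1.47 (adjusted p = 0.00592 by limma).

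Of 10 genes known as partners of CD36 in signalling, 7 were called higher and 0 lower, with a median log2 fold change of 2.10. The count lower depended on the processing. It was 1 under every scaling and with a minimum mean FPKM of 1, and 0 under the other alternatives. FCER1G, an adaptor with an activation motif, had the largest change at 4.12 (adjusted p = 0.00126 by limma) and the kinase LYN the smallest of those called at 1.68 (adjusted p = 0.0141). VAV1 rose by 3.90, the kinase SYK by 3.23 and the Toll-like receptor TLR4 by 2.93. Several of these genes are known from white blood cells in general. Of 8 transcription factors known to act on scavenger receptor genes, 2 were called higher and 0 lower, with a median log2 fold change of 0.81, and 1 was called without the first NC library. SPI1, also called PU.1 and needed for macrophage development, rose from 2.68 ± 0.63 to 73.2 ± 48.0 FPKM (SD, n = 3, log2 fold change 4.56, adjusted p = 0.00117 by limma). NFE2L2 was at a log2 fold change of 2.09 (adjusted p = 0.0748), PPARG, a nuclear receptor that acts on the CD36 gene, 1.37 (adjusted p = 0.206) and its partner RXRA -0.59 (adjusted p = 0.409), none of them called. Of the listed genes called, none changed direction under any of the 15 alternatives. Where limma called 0 genes of a list in a direction, 0 also met an unadjusted p under 0.05 in that direction, except for 1 lower CD36 partner (the kinase SRC, named after its values were seen), the 2 higher endothelial markers and a lower skeletal muscle marker.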

How the data were processed

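Total RNA from abdominal aorta was sequenced in 6 libraries, 3 per diet. Per the labels and the methods, the authors trimmed reads with cutadapt 1.9, checked them with FastQC, aligned them to the pig genome with HISAT2 and quantified genes with StringTie. They deposited FPKM values, used here as they stand, with 0.0001 read as 0. The methods name an older genome build than the reference at hand, so no coordinates are given, and depth is known only in relative terms. The receptors and the lists of other genes and cell type markers were chosen with earlier results of these data known.

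Values were fitted as log2(FPKM + 0.1) with limma 3.58.1 in R 4.3.3 (a model of diet alone, moderated with eBayes and trend = TRUE), since the RNA-Seq methods name no test for differential genes beside the general two-group test of the study, with Benjamini-Hochberg adjustment over 15384 genes. All 9 receptors are named. Of each other list, the called genes with the largest and the smallest log2 fold change and at most 3 further genes by size are named, and for each receptor the 2 genes most alike. Receptor differences within libraries were tested with exact two-sided permutation tests (scipy 1.17.1). On simulated data of 15049 genes, 166 of 200 changed genes were recovered with 15 false calls, and 0 were called without an effect. The alternatives were other pseudocounts, low-value filters, scalings, eBayes without a trend, a replicate block and each library left out. A fold without log2 is a ratio of mean FPKM. Same-numbered libraries were checked for pairing. Sequences were not used here. Results for some genes of the lists and of the genes most alike are not reported here.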

Additional observations from a re-analysis of the deposited data

How the results depend on the processing

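The 15 alternatives left MSR1 called throughout. Over all genes 4453 were called, 2772 with the replicate number as a block, and 2421 to 3596 with each library left out in turn, fewest without the first NC library. Deviations of same-numbered libraries from their group means correlated at 0.02, -0.08 and -0.07 across genes, so the numbers do not pair the libraries. The block took the call from OLR1 (adjusted p = 0.063 by limma) and from no other receptor. The 3 receptors called higher became 1 to 5 with a library left out, and those past the thresholds of the study in either direction 3 to 6. The 5 and the 6 were reached without the third HFCF library, and of those 6 receptors 5 were higher and SCARA5 was lower. Without the third NC library 4 passed these thresholds, 3 of them higher, and SCARA5 was again the lower one. The call of CD36 was lost without the first NC library or without the first or second HFCF library, and that of OLR1 under every alternative except a pseudocount of 0.01, a minimum mean FPKM of 1 and the third HFCF library left out. At an adjusted p under 0.05 no receptor was called lower under any alternative. SCARB1 changed sign, its log2 fold change being -0.12 with median-ratio scaling, -0.13 with quantile normalization, -0.031 as TPM and -0.092 without the first HFCF library, which is the lowest of -0.092 to 0.45 with a library left out. The cause was not tested. MARCO gave no value with a minimum mean FPKM of 1, which it does not reach. Counting the 8 receptors matched by symbol alone, an alternative chosen after seeing the data, gave the same 3 higher and 0 lower. With an unknown depth and 3 libraries a group, a change of COLEC12, SCARB1 or SCARF1 inside the intervals given is not excluded. The NC values of MARCO and MSR1 lie near or below the pseudocount of 0.1, except the third NC value of MSR1.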

Other observations

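Markers of blood cells were also read in these libraries. T cell markers summed to 1.66 to 1.84 FPKM under NC and to 2.57 to 10.23 FPKM under HFCF, and 1 of 5 was called higher and 0 lower by limma (3 and 0 at an unadjusted p under 0.05), namely the adhesion molecule CD2 with a log2 fold change of 2.25 (adjusted p = 0.0153), and 0 was called without the first NC library. The B cell markers summed to 5.99 to 10.3 FPKM under NC and to 34.6 to 42.5 FPKM under HFCF. Of 3 tested, 1 was called higher and 0 lower by limma (2 and 0 at an unadjusted p under 0.05). Without the third HFCF library 2 were called. The marker called was CD79A, a chain of the B cell receptor complex, at 5.64, 9.87 and 9.57 FPKM under NC and at 38.0, 36.0 and 34.1 FPKM under HFCF (log2 fold change 2.14, adjusted p = 0.00178), with little spread among the 3 HFCF libraries.

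Red blood cell and platelet markers summed to 11.4 to 14.7 FPKM under NC and to 54.0, 11.3 and 10.5 FPKM under HFCF. The first HFCF library stood out through ALAS2, the first enzyme of haem synthesis in red cells, at 37.2 FPKM, and the platelet chemokine PPBP, at 5.71 FPKM, and limma called 0 of 4 in either direction (also 0 at an unadjusted p under 0.05). This was also the library with the highest macrophage sum and the highest MSR1, CD36, SCARB1, SCARB2 and OLR1. The part of blood cells in those levels was not tested. Skeletal muscle markers summed to 0.925 to 4.28 FPKM under NC and to 0.666 to 2.15 FPKM under HFCF, and of 2 tested limma called 0 in either direction (1 lower, CKM, at an unadjusted p under 0.05).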
